A study of Mus musculus with 18 samples.

Results

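Collagen chains were described across the whole experiment as the rows of a deposited table of uterine mRNA levels whose gene symbol reads Col, a number, the letter a and a number. The rule found 41 chains among 25791 gene symbols and used no measured value. They were grouped as fibrillar (11 chains), basement membrane (8 chains) and other (22 chains). Of the 41, 22 reached 1 FPKM (fragments per kilobase of transcript, scaled to the mapped fragments of a library) in at least 3 libraries and were tested, namely 8 of the fibrillar, 5 of the basement membrane and 9 of the other chains.

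The libraries came from cross sections of the uterus of 12-week-old wild-type mice (WT) and mice lacking Tsc2 in the uterus alone (KO), all on a mixed 129Sv X C57BL/6 strain. Tsc2 encodes tuberin, which restrains the growth kinase complex mTORC1, and the sources used here do not give the way it was removed. Mice of each genotype kept their ovaries (intact), lost them at 4 weeks of age (ovx), or lost them at 4 weeks and then carried a 0.5 mg 17β-estradiol pellet with 90 days of release for 8 weeks (E2). Each of the 6 groups held 3 libraries, 18 in all, with the numbers 1, 2 and 4 in WT intact and KO ovx, 1, 3 and 4 in KO intact, 1, 2 and 3 in WT ovx and KO E2, and 1, 2 and 5 in WT E2. Values are listed in this order throughout, and a library is named by its group and number. The labels do not say whether the libraries came from separate animals, and a p-value here reflects nothing but the spread between these samples. Read counts are not part of the table, which leaves the sequencing depth unknown.

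Collagens are proteins of the extracellular matrix in which chains wind around each other in a helix. Fibrillar collagens such as types I, III and V build the ropes that carry tension, with type V seeding and thinning the fibrils of type I. Type IV forms the sheet under epithelia and around smooth muscle cells and vessels, to which types XV and XVIII are bound. Type VI forms beaded filaments around cells, and the fibril-associated types, such as XII, XIV and XVI, sit on the surface of fibrils. In the uterus the fibrillar chains are made mainly by fibroblasts of the stroma and by smooth muscle cells, and the collagen content of the organ is known to change with ovarian hormones and pregnancy.

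Promoters are printed for Col4a1 and Col4a2, whose levels stayed close to each other in every library, and for Col4a5, another type IV chain with a pattern of its own. The sequences are those of RefSeq on GRCm38.p6, each running from 250 bases before to 50 bases after the start of the gene, and 33 of the 41 chains had an entry. Col4a1 (chr8:11312777-11313076, minus strand) and Col4a2 (chr8:11312555-11312854, plus strand) lie head to head with start positions that differ by 21 bases, so that 78 bases belong to both windows. These 78 bases are in capitals in the first pair of lines, where they read on opposite strands. In the line of Col4a5 (chrX:141475169-141475468, plus strand), capitals mark matches to a CCAAT box or to a GC box.
Col4a1: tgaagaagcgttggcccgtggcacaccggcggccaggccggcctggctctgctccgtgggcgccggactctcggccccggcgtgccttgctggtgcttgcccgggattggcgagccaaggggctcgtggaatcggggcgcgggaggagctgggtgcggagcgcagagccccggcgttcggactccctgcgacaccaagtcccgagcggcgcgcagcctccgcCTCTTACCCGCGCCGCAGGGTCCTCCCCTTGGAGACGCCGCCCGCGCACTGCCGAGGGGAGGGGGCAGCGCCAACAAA
Col4a2: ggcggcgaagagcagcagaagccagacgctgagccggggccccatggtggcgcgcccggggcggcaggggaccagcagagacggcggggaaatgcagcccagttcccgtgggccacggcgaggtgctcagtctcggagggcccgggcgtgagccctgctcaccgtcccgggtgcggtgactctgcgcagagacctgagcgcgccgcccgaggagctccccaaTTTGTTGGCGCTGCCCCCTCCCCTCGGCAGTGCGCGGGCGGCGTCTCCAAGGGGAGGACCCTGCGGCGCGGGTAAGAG
Col4a5: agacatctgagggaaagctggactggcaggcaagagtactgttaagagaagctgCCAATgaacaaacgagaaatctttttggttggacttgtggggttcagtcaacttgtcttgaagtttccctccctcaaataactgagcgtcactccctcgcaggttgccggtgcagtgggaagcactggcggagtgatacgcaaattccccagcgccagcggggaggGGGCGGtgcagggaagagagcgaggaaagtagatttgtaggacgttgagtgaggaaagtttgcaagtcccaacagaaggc
The letters GGGCGG (GC box, either strand) occurred 1 time in the Col4a1 window, 3 times in that of Col4a2 and 1 time in that of Col4a5. They were present in 20 of the 33 first promoters of the chains (60.6%), beside 35.7% of 32851 promoters in all. CCAAT, on either strand, was found 1 time in each of the 3 windows, in 11 of the 33 (33.3%) and in 37.4% of all promoters. TATAAA was in none of the 3 windows, in 5 of the 33 (15.2%) and in 13.6% of all promoters. A match is a description of the letters only.

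Libraries differed within groups more than the labels show. Tsc2 ranged from 2.04 to 2.51 FPKM in WT and 1.62 to 1.98 in KO with ovaries in place, 3.17 to 3.49 and 2.39 to 3.33 after ovariectomy, and 2.38 to 2.73 and 1.75 to 2.42 under estradiol. Its mean difference between genotypes was -0.18 on the log2(FPKM + 1) scale (exact permutation test within states, two-sided p = 0.00275), with WT and KO meeting in the ovx and E2 states. The libraries were divided into 4 sets by the steps of their lowest values. The number of sets was chosen, not found, their separation was not complete, and the labels do not name them. Set 1 held WT intact 1 and 4 with KO intact 1 and 4, and set 2 held WT intact 2 with KO intact 3. Set 3 held WT ovx 1 and 3, all KO ovx libraries, WT E2 5 and KO E2 3, and set 4 held WT ovx 2, WT E2 1 and 2, and KO E2 1 and 2. WT intact 4, KO ovx 4 and KO E2 2 stood apart: each had the lowest mean correlation with its own group in the 3 groups where this correlation was lowest (0.891, 0.921 and 0.898, across genes, which are not independent replicates). The other libraries were at 0.907 and 0.926 in WT intact, 0.958 and 0.950 in KO ovx and 0.920 and 0.913 in KO E2. KO E2 2 thus lay close to its partners by this measure. Results are given with all 18 libraries and, where the 3 that stood apart matter, without them, a choice made after seeing the data.

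The most abundant chains were those of types VI, I and III. Col6a1, a chain of the type VI filament, took a median of 17% of all collagen FPKM in a library, Col1a2 16.8%, Col3a1 13.8%, Col6a2 13.2% and Col1a1 12.2%. Together these 5 chains made up between 62.8% and 85.9% of the collagen FPKM (median 74.5%). FPKM is scaled by transcript length, so these levels can be set beside each other.

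Col6a1 stood at 75.4, 41.9 and 5.44 FPKM in WT intact, 51.8, 35.9 and 45.6 in KO intact, 37.3, 44.3 and 39.0 in WT ovx, and at 26.8, 35.1 and 7.35 in KO ovx, 49.7, 50.4 and 36.3 in WT E2 and 54.8, 37.4 and 42.9 in KO E2. WT intact 4 and KO ovx 4 were lowest, and the other 16 libraries lay between 26.8 and 75.4 FPKM. Col6a2 stood at 76.3, 30.0 and 5.19 FPKM in WT intact, 41.5, 26.1 and 35.1 in KO intact, 24.6, 37.8 and 27.4 in WT ovx, and at 20.5, 25 and 5.67 in KO ovx, 52.8, 55.2 and 35.3 in WT E2 and 49.2, 36.3 and 40.2 in KO E2. The same pair of libraries was lowest again. Col1a1 stood at 60.2, 39.7 and 4.73 FPKM in WT intact, 26.4, 26.7 and 66.2 in KO intact, 16.9, 24.1 and 18.7 in WT ovx, and at 29.4, 27.2 and 6.68 in KO ovx, 27.7, 28.7 and 20.0 in WT E2 and 152, 30.9 and 131 in KO E2. KO E2 1 and 3 stood above all 16 others. Col1a2 stood at 75.3, 59.6 and 8.11 FPKM in WT intact, 60.7, 71.7 and 116 in KO intact, 20.1, 27.2 and 18.4 in WT ovx, and at 36.3, 35.2 and 7.83 in KO ovx, 33.8, 37.2 and 23.2 in WT E2 and 143, 30.0 and 168 in KO E2. Here too KO E2 1 and 3 were highest, and WT intact 4 and KO ovx 4 lowest. Col3a1 stood at 82.5, 43.5 and 8.63 FPKM in WT intact, 40.5, 47.1 and 78.7 in KO intact, 15.8, 23.5 and 19.6 in WT ovx, and at 31.5, 34.2 and 7.03 in KO ovx, 15.7, 16.0 and 15.8 in WT E2 and 90.5, 11.7 and 173 in KO E2. Type III is the fibrillar collagen of soft, distensible organs. Its WT E2 libraries lay within 15.7 to 16.0 FPKM, while the 3 KO E2 libraries spanned 11.7 to 173.

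**Figure D1:**
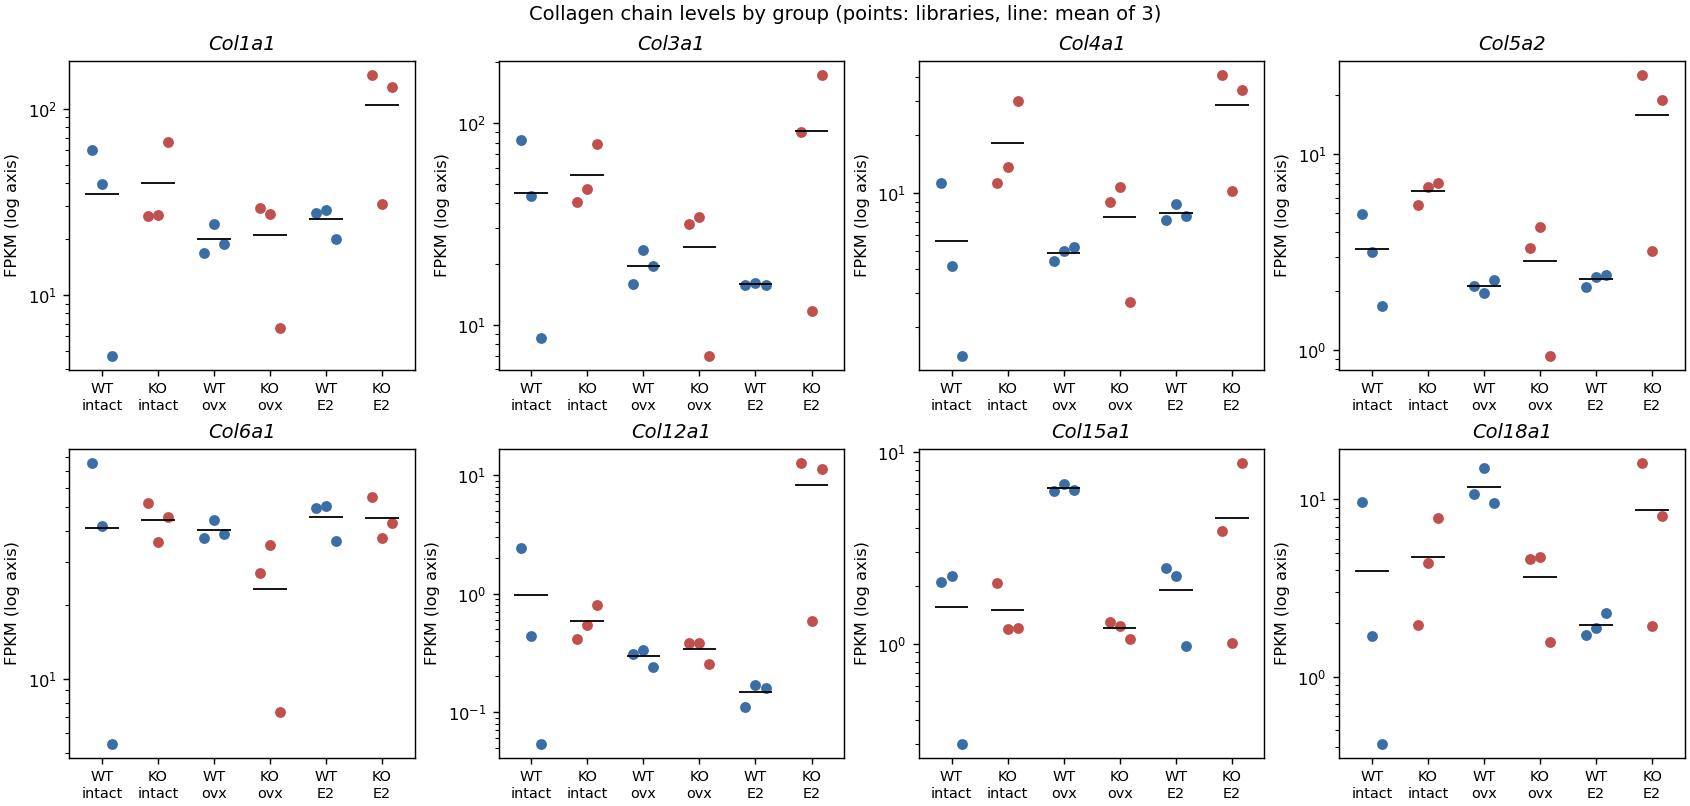
FPKM (log axis) of 8 collagen chains in the 6 groups, with a point per library (WT blue, KO red) and a line at the mean of 3. In KO E2, 2 libraries sit high and 1 low for Col1a1 (152, 30.9 and 131), while the 3 WT ovx libraries of Col15a1 sit together between 6.28 and 6.76.

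In 3 groups a single library was lowest for nearly all of the 22 tested chains. WT intact 4 had the lowest value of its group for 21 of 22 chains, at a median of 0.135 times the mean of the other 2 libraries. KO ovx 4 was lowest for 21 of 22 chains (median 0.274 times) and KO E2 2 for 19 of 22 (median 0.249 times). In the other 3 groups the lowest value was divided among libraries, with 10, 2 and 10 chains in WT ovx, 12, 8 and 2 in KO intact and 6, 2 and 14 in WT E2. KO E2 1 held the highest value of all 18 libraries for 10 chains and KO E2 3 for 4. The summed FPKM of all 41 chains was 439.8, 249.9 and 47.9 in WT intact, 277, 267 and 446 in KO intact, 171, 220.0 and 177 in WT ovx, 193, 212 and 55.0 in KO ovx, 225, 239 and 177 in WT E2 and 696, 198 and 708 in KO E2. WT ovx and WT E2 were the groups of narrow spread, and the lowest library of WT intact, KO ovx and KO E2 lay far under its 2 partners.

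Markers of cell types differed in the same libraries. The 7 markers of stroma fibroblasts (Pdgfra, Dcn, Lum, Vim, Thy1, Hoxa11 and Hand2), all measured and none at 0, summed to 244, 431 and 41.3 FPKM in WT intact, 263, 308 and 124 in KO ovx and 789.8, 151 and 626 in KO E2. The 7 epithelial markers, none at 0, summed to 361, 465 and 1035 in WT intact, 272, 188 and 597 in KO ovx and 98.9, 608 and 307 in KO E2. So the library of lowest collagen in each of these groups also had the lowest stroma sum and the highest epithelial sum. Single markers could differ: in KO E2, Hoxa11 and Hand2 were lowest in KO E2 3. The 5 adipocyte markers reached 76.2 FPKM in KO ovx 4, 288 in KO E2 1 and 1426 in KO E2 3 and stayed at or below 34.0 elsewhere, with all 5 at 0 in WT intact 4 and in the 3 KO intact libraries. The part of cell content in the collagen values was not tested. In a tissue sample, fewer cells of a type and less RNA per cell cannot be told apart.

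**Figure D2:**
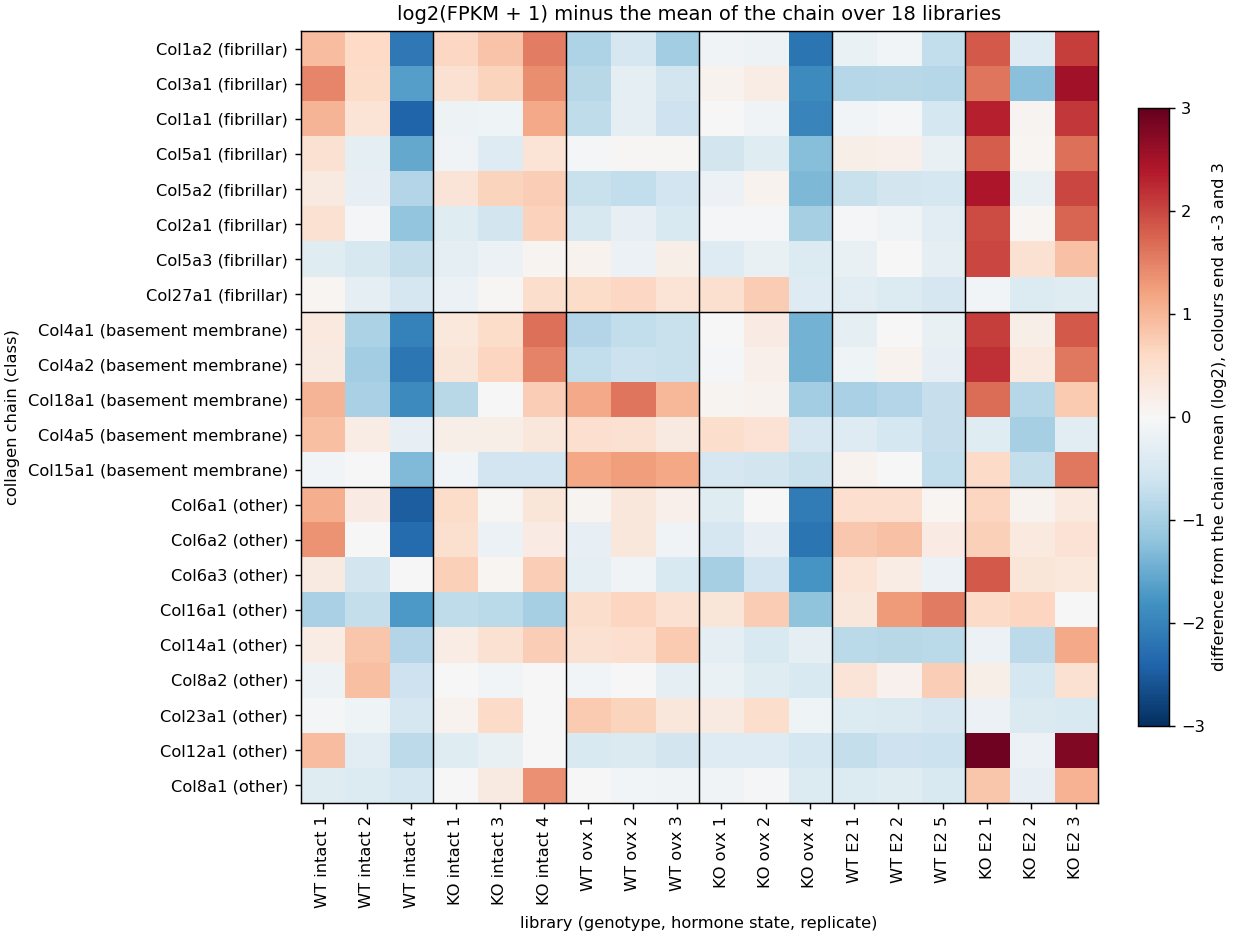
Heat map of the 22 tested chains (rows, ordered by class and median level) in 18 libraries (columns, in groups of 3), with colour giving log2(FPKM + 1) minus the mean of the chain over libraries. WT intact 4 and KO ovx 4 are blue columns, each lowest of its group for 21 of 22 chains, and KO E2 1 and 3 are red for most fibrillar chains.

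The balance of classes within a library differed between groups as a description. Fibrillar chains made up 36.0% to 38.1% of collagen FPKM in WT ovx and 37.4% to 38.2% in WT E2, but 46.9% to 55.0% in KO ovx and 63.8%, 42.2% and 72.8% in KO E2. In intact uteri the fibrillar share was 50.4% to 60.4% in WT and 49.9% to 62.6% in KO. Basement membrane chains made up 15.7% to 17.0% in WT ovx and 8.50% to 9.81% in WT E2, without overlap. No test was run on these shares.

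Loss of Tsc2 left no chain past the threshold in intact uteri. None of the 22 chains had an adjusted p under 0.05 (limma on log2(FPKM + 1), adjusted over 13898 genes), where 2.18% of all genes were called (1.19% higher, 0.993% lower), and 4 chains (Col4a1, Col4a2, Col8a1 and Col23a1) had an unadjusted p under 0.05, beside 18.4% of all genes. The median log2 difference of the chains was 0.47, that of all genes -0.04. Without WT intact 1, the count was 2. The KO libraries lay above all WT libraries for 6 of 22 chains (Col5a2, Col5a3, Col4a1, Col4a2, Col8a1 and Col23a1) and below for none, beside 22.8% of all genes without overlap (10.3% above, 12.5% below). Marker sums in KO also lay above WT for smooth muscle (346.2 to 1169 against 52.03 to 335.5 FPKM, Des called), endothelium (23.57 to 60.35 against 1.929 to 14.35, Pecam1 and Vwf) and pericytes (22.5 to 30.19 against 1.204 to 9.241, Rgs5). Those of epithelium (172.5 to 359.6 against 360.6 to 1035) and neutrophils (10.35 to 42.4 against 64.75 to 448.4) lay below, with none called. Ltf made up most of the neutrophil sums (63.7, 217 and 448 FPKM in WT, 8.81, 18.1 and 40.5 in KO). The other neutrophil markers stayed at or below 0.8904 FPKM in these libraries. Of them, S100a9 lay higher in KO (0.395 to 0.8904 against 0.0678 to 0.177). The median difference of the neutrophil list was 0.05. The part of all these cell types was not tested.

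After ovariectomy, 1 of 22 chains differed between genotypes, beside 5.42% of all genes (4.63% higher, 0.791% lower). Col15a1, whose product bridges basement membranes and fibrils, was lower in KO. Col15a1 stood at 2.10, 2.25 and 0.301 FPKM in WT intact, 2.08, 1.19 and 1.21 in KO intact, 6.28, 6.76 and 6.32 in WT ovx, and at 1.30, 1.24 and 1.06 in KO ovx, 2.49, 2.25 and 0.972 in WT E2 and 3.86, 1.00 and 8.71 in KO E2. The 3 WT ovx libraries lay above every KO ovx library and above all but 1 library of the other groups. The difference was -1.76 ± 0.45 (log2 ± SE, adjusted p = 0.0353), from a mean of 6.45 ± 0.266 FPKM (SD, n = 3) to 1.20 ± 0.126 FPKM (SD, n = 3). It was lost without any single library of the 6 (adjusted p up to 0.13). Between libraries of set 3 alone (3 KO, 2 WT) it was -1.73, and with the set as a term in the fit it was -1.85 (adjusted p = 0.062). Without the 3 libraries that stood apart the call held. Cell type markers differed in the same libraries without overlap, with none at 0: the 7 stroma markers ran from 124 to 308 FPKM in sum in KO ovx against 459 to 529.7 in WT ovx, the 7 endothelial markers from 9.45 to 24.7 against 29.6 to 34.3, and the 7 epithelial markers from 188 to 597 against 76.5 to 133. Of these markers 1 passed the threshold (the epithelial Cldn4, higher in KO). Their part in the Col15a1 difference was not tested. The median difference of all 22 chains was -0.25, that of all genes 0.09. KO ovx lay below WT ovx without overlap for 7 of 22 chains (Col5a1, Col5a3, Col15a1, Col18a1, Col6a1, Col6a3 and Col14a1). It lay above for none, beside 13.4% of all genes below and 26.8% above.

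Under estradiol, 3 of 22 chains were higher in KO and none lower, where 8.49% of all genes were called (4.91% higher, 3.58% lower). They were Col5a2 and Col5a3, chains of the type V collagen that seeds type I fibrils, and Col12a1, which coats fibrils in tissue under tension. Col5a2 stood at 4.95, 3.17 and 1.68 FPKM in WT intact, 5.47, 6.79 and 7.16 in KO intact, 2.12, 1.95 and 2.28 in WT ovx, and at 3.32, 4.27 and 0.937 in KO ovx, 2.10, 2.35 and 2.42 in WT E2 and 25.3, 3.22 and 18.9 in KO E2. Every KO E2 library lay above every WT E2 library. The difference was 1.98 ± 0.52 (adjusted p = 0.0292). Without WT E2 1, WT E2 2, WT E2 5, KO E2 1 or KO E2 3 (adjusted p up to 0.168), the threshold was missed.

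Col5a3 stood at 0.422, 0.313 and 0.112 FPKM in WT intact, 0.517, 0.630 and 0.955 in KO intact, 0.982, 0.629 and 1.07 in WT ovx, and at 0.403, 0.581 and 0.381 in KO ovx, 0.586, 0.849 and 0.518 in WT E2 and 6.41, 1.53 and 2.41 in KO E2. The KO E2 group was the 1 group with all libraries above 1 FPKM. Its difference from WT E2 was 1.28 ± 0.28 (adjusted p = 0.0105). This result held with each of the 6 libraries left out in turn (highest adjusted p 0.0488). Col12a1 stood at 2.42, 0.437 and 0.0541 FPKM in WT intact, 0.417, 0.546 and 0.796 in KO intact, 0.312, 0.337 and 0.242 in WT ovx, and at 0.387, 0.387 and 0.255 in KO ovx, 0.111, 0.171 and 0.160 in WT E2 and 12.6, 0.590 and 11.4 in KO E2. KO E2 1 and 3 stood far above the other 16 libraries, of which the highest was WT intact 1 at 2.42. For Col12a1 the difference was 2.49 ± 0.59 (adjusted p = 0.0177). The call ended without WT E2 1, WT E2 5, KO E2 1 or KO E2 3 (adjusted p up to 0.102). Within set 3 (1 library each) the differences were 2.54 for Col5a2, 1.17 for Col5a3 and 3.41 for Col12a1, and within set 4 (2 each) they were 1.71, 1.34 and 2.03.

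Of these chains, 2 passed the filter largely through the group where they were high. Col5a3 reached 1 FPKM in the 3 KO E2 libraries and WT ovx 3, and Col12a1 in KO E2 1, KO E2 3 and WT intact 1, which bears on every comparison with KO E2. Their calls also held when all genes were tested without the filter.

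The count of 3 rested on which libraries entered. It was 1 without WT E2 1, WT E2 5, KO E2 1 or KO E2 3, 2 without WT E2 2 and 12 without KO E2 2, and 0 when the WT E2 and KO E2 libraries alone were fitted. In that limma fit 0% of all genes were called, and 10 of 22 chains had an unadjusted p under 0.05, beside 17.8% of all genes. Without all 3 libraries that stood apart it was 14 higher and 0 lower, where 23.1% of all genes were called, and the 14 included the first 3 with Col1a1, Col1a2, Col2a1, Col3a1, Col5a1, Col4a1, Col4a2, Col15a1, Col18a1, Col8a1 and Col14a1. KO E2 1 and 3 also carried the highest stroma marker sums of the experiment (789.8 and 626 FPKM), with Dcn at 366 and 288 and Vim at 289 and 151. Not all stroma markers went that way. Hoxa11 was at 4.04, 3.20 and 2.47 FPKM in KO E2 and Hand2 at 1.99, 0.930 and 0.495. The 6 neutrophil markers summed to 70.2, 2346 and 560 FPKM in WT E2 and 14540, 3091 and 1326 in KO E2, with 3 of 6 higher in KO, and the 6 macrophage markers to 60.6 to 222.2 and 482 to 2832, with 1 of 6 higher. Among the neutrophil markers, Ltf was at 0, 2103 and 0 FPKM in WT E2 and 192, 1665 and 29.6 in KO E2, and so made up most of the sum in WT E2 2. Their part was not tested. With all libraries, the median difference of the fibrillar chains was 1.47, of the basement membrane chains 1.38 and of the other chains 0.09, beside -0.05 for all genes. KO E2 lay above WT E2 without overlap for 9 of 22 chains and below for none, beside 10.4% of all genes above and 12.1% below.

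Averaged over the 3 states, 2 of 22 chains were higher in KO, beside 5.90% of all genes called (4.17% higher, 1.73% lower). These were Col4a1 and Col4a2, which wind together into the common type IV collagen of basement membranes. Col4a1 stood at 11.2, 4.16 and 1.42 FPKM in WT intact, 11.2, 13.54 and 29.9 in KO intact, 4.40, 4.98 and 5.24 in WT ovx, and at 8.97, 10.8 and 2.71 in KO ovx, 7.25, 8.74 and 7.52 in WT E2 and 40.9, 10.2 and 34.4 in KO E2. In intact uteri and under estradiol every KO value was above every WT value, and after ovariectomy KO ovx 4 was the lowest of 6. Col4a2 stood at 8.38, 2.77 and 0.744 FPKM in WT intact, 9.04, 11.1 and 20.8 in KO intact, 3.64, 4.00 and 3.86 in WT ovx, and at 6.48, 7.72 and 1.93 in KO ovx, 6.15, 7.40 and 5.58 in WT E2 and 34.6, 8.52 and 22.5 in KO E2. It followed the same order. The mean differences were 1.21 ± 0.34 for Col4a1 (adjusted p = 0.0493) and 1.17 ± 0.33 for Col4a2 (adjusted p = 0.0492). Both calls lay at the threshold and ended without any 1 of 15 of the 18 libraries, the exceptions being WT intact 1, KO ovx 4 and KO E2 2. Both also ended with the library set as a term (adjusted p 0.0813 and 0.079). The part of cell content in these calls was not tested. The count of chains was 3 without WT intact 1, 3 without KO ovx 4, 7 without KO E2 2, 1 without KO intact 1, 0 without any other single library and 10 without the 3 libraries that stood apart.

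**Figure D3:**
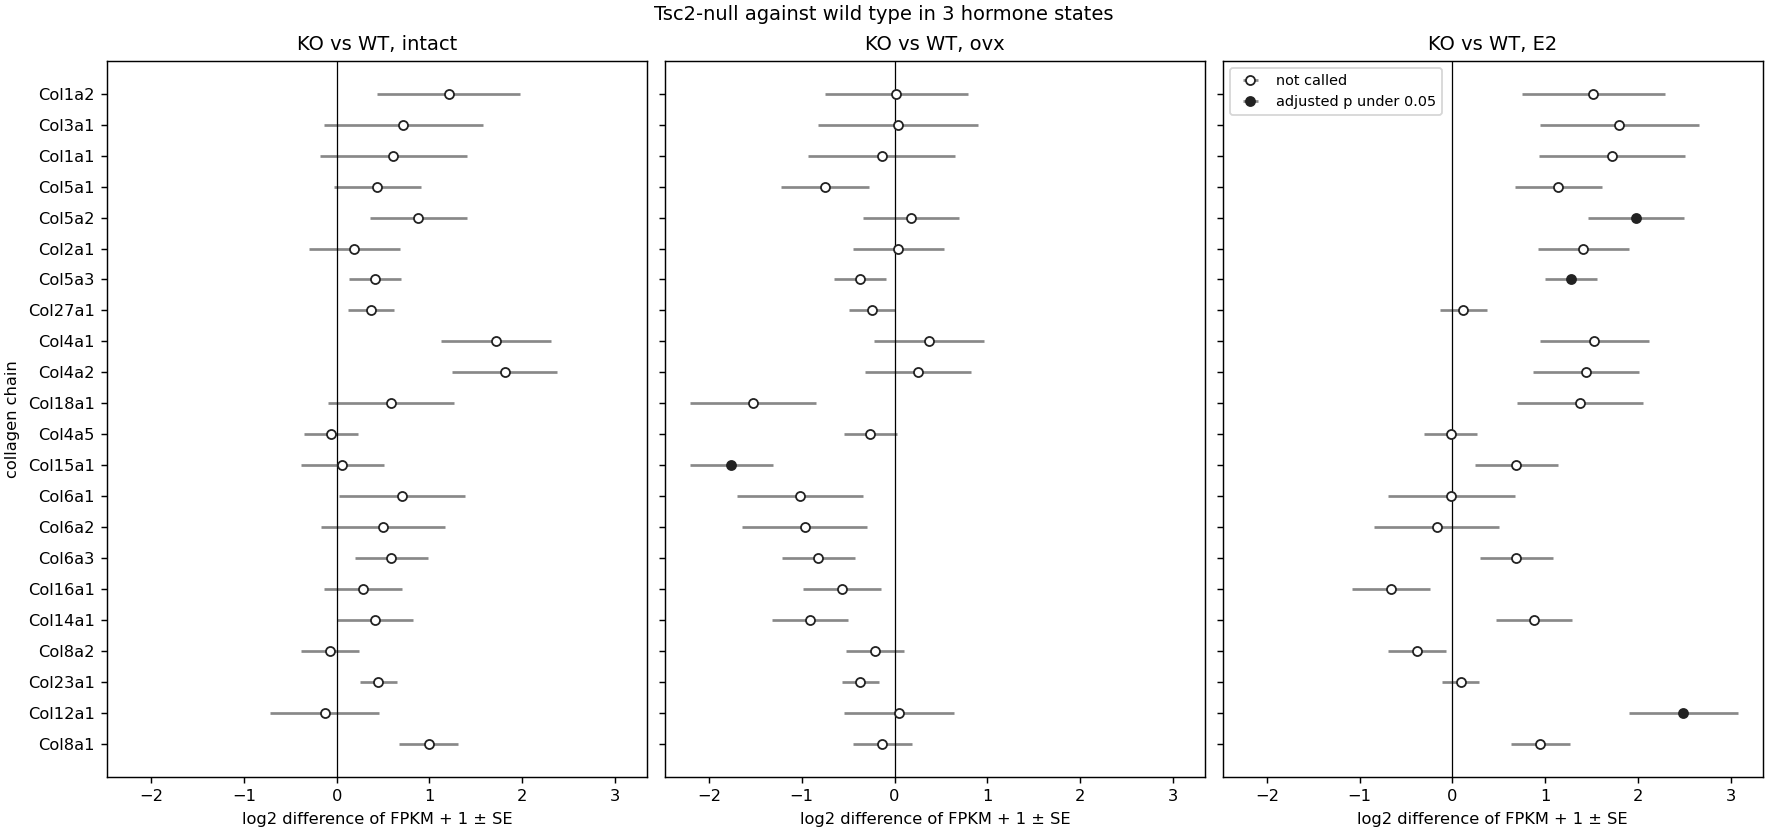
Difference between KO and WT in log2(FPKM + 1) for the 22 tested chains in 3 hormone states (intact, ovx and E2), where a bar gives the standard error and filled points for an adjusted p under 0.05. No point is filled in intact uteri, 1 (Col15a1) after ovariectomy and 3 (Col5a2, Col5a3 and Col12a1) under estradiol.

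Estradiol after ovariectomy lowered 6 of 22 chains in WT and raised none, where 47.5% of all genes were called (32.3% higher, 15.2% lower). The 6 were Col15a1, Col18a1 and Col4a5 of basement membranes, Col14a1 on the surface of fibrils, the fibrillar Col27a1 and the transmembrane Col23a1. The median difference of the chains was 0.05, that of all genes 0.24, and under a median-ratio scaling of the libraries these were -0.09 and 0.10. All 6 calls held under that scaling. Separation without overlap was common here. WT E2 lay below WT ovx for 8 of 22 chains and above for 3, beside 23.3% of all genes below and 43.5% above. When the WT ovx and WT E2 libraries alone were fitted, 7 chains were lower, the 6 with Col8a1, and 3 were higher (Col4a1, Col4a2 and Col8a2), where 56.1% of all genes were called.

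Col18a1 stood at 9.73, 1.70 and 0.420 FPKM in WT intact, 1.97, 4.36 and 7.83 in KO intact, 10.7, 15.1 and 9.59 in WT ovx, and at 4.61, 4.74 and 1.57 in KO ovx, 1.72, 1.88 and 2.29 in WT E2 and 16.0, 1.93 and 8.10 in KO E2. Col18a1 is the source of the fragment endostatin. WT ovx values all lay above WT E2 values, and WT E2 was the lowest group with a narrow spread. The estradiol difference in WT was -2.09 ± 0.68 (adjusted p = 0.0198). It was lost without WT ovx 2 (adjusted p 0.0633). For Col15a1, listed above, it was -1.40 ± 0.45 (adjusted p = 0.0182). Without WT E2 5 (adjusted p 0.0808), the threshold was missed.

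Col4a5 stood at 4.33, 2.31 and 1.41 FPKM in WT intact, 2.23, 2.21 and 2.63 in KO intact, 3.07, 2.90 and 2.42 in WT ovx, and at 3.12, 2.83 and 0.998 in KO ovx, 1.16, 0.992 and 0.777 in WT E2 and 1.22, 0.433 and 1.29 in KO E2. The WT E2 libraries lay below all WT ovx libraries. Estradiol changed Col4a5 in WT by -0.94 ± 0.29 (adjusted p = 0.0152). Significance was lost without WT ovx 1 or WT E2 5 (adjusted p up to 0.0522). Its neighbour Col4a6, with a start 1343 bases away in RefSeq, stayed between 0.00618 and 0.337 FPKM and was not tested.

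Col14a1 stood at 1.40, 2.64 and 0.109 FPKM in WT intact, 1.38, 1.79 and 2.43 in KO intact, 1.81, 1.88 and 2.51 in WT ovx, and at 0.673, 0.493 and 0.698 in KO ovx, 0.164, 0.157 and 0.162 in WT E2 and 0.821, 0.181 and 3.53 in KO E2. The 3 WT E2 libraries lay within 0.157 to 0.164 FPKM, and WT intact 4 alone was lower. Its difference in WT was -1.39 ± 0.41 (adjusted p = 0.0128). It held with each of the 6 libraries left out in turn (highest adjusted p 0.0434). Col27a1 stood at 0.553, 0.251 and 0.0607 FPKM in WT intact, 0.331, 0.529 and 1.18 in KO intact, 1.20, 1.31 and 0.994 in WT ovx, and at 1.11, 1.54 and 0.140 in KO ovx, 0.2004, 0.132 and 0.0598 in WT E2 and 0.415, 0.124 and 0.157 in KO E2. Col27a1 reached 1 FPKM in 5 libraries, 4 of them ovx, so it passed the filter largely through the group where it was high. Its difference in WT was -0.94 ± 0.25 (adjusted p = 0.00771). This result held with each of the 6 libraries left out in turn (highest adjusted p 0.0284).

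Col23a1 stood at 0.455, 0.395 and 0.0740 FPKM in WT intact, 0.634, 1.25 and 0.507 in KO intact, 1.61, 1.41 and 0.920 in WT ovx, and at 0.832, 1.21 and 0.396 in KO ovx, 0.136, 0.123 and 0.0679 in WT E2 and 0.339, 0.124 and 0.1001 in KO E2. Values of at least 1 FPKM occurred in 4 libraries, 3 of them ovx, so the filter again favoured that state. Estradiol changed it by -1.05 ± 0.20 in WT (adjusted p = 0.000787) and by -0.59 ± 0.20 in KO (adjusted p = 0.0381). The call held with each of the 6 libraries left out in turn (highest adjusted p 0.00605). The KO call ended without KO ovx 1, KO ovx 2, KO E2 2 or KO E2 3 (adjusted p up to 0.168).

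Within library sets 3 and 4 the differences in WT were -1.76 and -2.52 for Col18a1, -1.89 and -1.20 for Col15a1, -1.07 and -0.91 for Col4a5, -1.43 and -1.31 for Col14a1, -0.98 and -0.98 for Col27a1, and -1.07 and -1.09 for Col23a1. Cell type markers moved alongside. The 7 stroma markers summed to 459 to 529.7 FPKM in WT ovx and 108 to 162 in WT E2, with 4 of 7 lower. The 7 endothelial markers, none at 0, summed to 29.6 to 34.3 and 9.72 to 12.1, with 4 of 7 lower. The 7 epithelial markers summed to 76.5 to 133 and 579 to 991, with 6 of 7 higher. Their part in the collagen differences was not tested.

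In KO, estradiol raised 9 of 22 chains and lowered 1 (Col23a1), where 27.1% of all genes were called (15.9% higher, 11.2% lower). The 9 were the fibrillar Col1a1, Col2a1, Col5a1, Col5a2 and Col5a3, the type IV pair Col4a1 and Col4a2, Col6a3 and Col12a1. The median difference was 1.75 for fibrillar, 1.05 for basement membrane and 0.73 for other chains, beside 0.07 for all genes. KO E2 lay above KO ovx without overlap for 9 of 22 chains and below for 1, beside 20.4% of all genes above and 15.9% below. Col6a3 stood at 8.59, 4.40 and 7.02 FPKM in WT intact, 12.0, 7.21 and 12.2 in KO intact, 5.44, 6.37 and 4.75 in WT ovx, and at 2.98, 4.33 and 1.33 in KO ovx, 9.59, 8.30 and 6.00 in WT E2 and 27.5, 9.21 and 8.97 in KO E2. Col6a3 is the third chain of the type VI filament. All KO E2 values lay above all KO ovx values, and its difference was 1.96 ± 0.39 (adjusted p = 0.00197). It held with each of the 6 libraries left out in turn (highest adjusted p 0.00858).

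Col5a1 stood at 4.98, 2.54 and 0.498 FPKM in WT intact, 3.05, 2.32 and 4.84 in KO intact, 3.24, 3.48 and 3.48 in WT ovx, and at 1.98, 2.40 and 0.785 in KO ovx, 3.93, 3.83 and 2.77 in WT E2 and 14.4, 3.54 and 12.6 in KO E2. KO E2 values lay above KO ovx values, with KO E2 2 close to the WT libraries. The response was 1.91 ± 0.47 for Col5a1 (adjusted p = 0.00835), 1.88 ± 0.52 for Col5a2 (adjusted p = 0.0158) and 1.46 ± 0.28 for Col5a3 (adjusted p = 0.00145). The calls of Col5a1 and Col5a3 held with each of the 6 libraries left out in turn. That of Col5a2 ended without KO ovx 4, KO E2 1 or KO E2 3 (adjusted p up to 0.0823).

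For type I, Col1a1 differed by 2.20 ± 0.79 (adjusted p = 0.0497), a call that ended without KO ovx 1, KO ovx 2, KO ovx 4, KO E2 1 or KO E2 3 (adjusted p up to 0.167). Its partner Col1a2 differed by 2.00 ± 0.77 and missed the threshold (adjusted p = 0.0666). Among basement membrane chains, the difference was 1.75 ± 0.59 for Col4a1 (adjusted p = 0.039) and 1.79 ± 0.57 for Col4a2 (adjusted p = 0.0299). Either call ended without KO ovx 1, KO ovx 4, KO E2 1 or KO E2 3 (adjusted p up to 0.148 and 0.129). Col12a1 differed by 2.26 ± 0.59 (adjusted p = 0.0114), a call that ended without KO E2 1 or KO E2 3 (adjusted p up to 0.0616).

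Col2a1 stood at 2.95, 1.74 and 0.263 FPKM in WT intact, 1.22, 0.970 and 3.66 in KO intact, 1.05, 1.43 and 1.08 in WT ovx, and at 1.82, 1.78 and 0.434 in KO ovx, 1.76, 1.69 and 1.29 in WT E2 and 10.1, 2.01 and 8.60 in KO E2. Col2a1 encodes the fibrillar collagen of cartilage, and its values tracked those of Col1a1. The ratio of Col2a1 to Col1a1 lay between 0.0363 and 0.0667 in all 18 libraries (median 0.0605), a ratio examined after seeing the values. Of 5 cartilage markers, Acan stayed at or below 0.0602 FPKM, Matn3 at or below 0.0291 and Matn1 at or below 1.20, with Acan at 0 in 4 libraries and Matn1 and Matn3 at 0 in 7 each. Hapln1 stayed at or below 1.205 FPKM. Sox9 went another way, from 0.354 FPKM in WT ovx 1 to 17.7 in WT E2 5, and was called higher under estradiol in WT. In KO E2 it was at 0.831, 7.30 and 0.696. Reads shared between the 2 transcripts cannot be told apart in these values, so Col2a1 is reported as uncertain. Its estradiol difference in KO was 1.61 ± 0.49 (adjusted p = 0.0234), a call that ended without KO ovx 4, KO E2 1 or KO E2 3 (adjusted p up to 0.106).

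The count in KO moved from 10 to 13 without KO E2 2, 6 without KO ovx 1, 4 without KO E2 1 and 3 without KO E2 3. With the library set as a term it was 6 (19.6% of all genes called), the calls of Col1a1, Col2a1, Col4a1 and Col4a2 being lost (adjusted p 0.0683 to 0.129), and when the KO ovx and KO E2 libraries alone were fitted it was 1 (Col6a3), with 12.9% of all genes called. Without the 3 libraries that stood apart it was 13 higher and 3 lower, where 39.4% of all genes were called. In that fit Col1a2, Col3a1, Col15a1 and Col8a1 joined the higher chains, and Col27a1 and Col4a5 the lower. Within set 3, where KO E2 3 alone was set against the 3 KO ovx libraries, the differences of the 9 raised chains ran from 1.23 (Col5a3) to 3.20 (Col12a1). The adipocyte markers summed to 1426 FPKM in that library, and the 6 macrophage markers, all 6 higher in KO E2 than in KO ovx, to 564, 482 and 2832 in KO E2 against 23.8, 39.4 and 546 in KO ovx. The 6 neutrophil markers summed to 14540, 3091 and 1326 FPKM in KO E2, with none at 0, and to 3.697, 3.70 and 268.9 in KO ovx, with Camp at 0 in KO ovx 1. Of these 6, S100a8, S100a9, Ngp, Camp and Csf3r were higher in KO E2, and the median difference of the list was 5.07. Ltf was not called, and it held 1665 FPKM of the sum in KO E2 2. Their part was not tested.

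**Figure D4:**
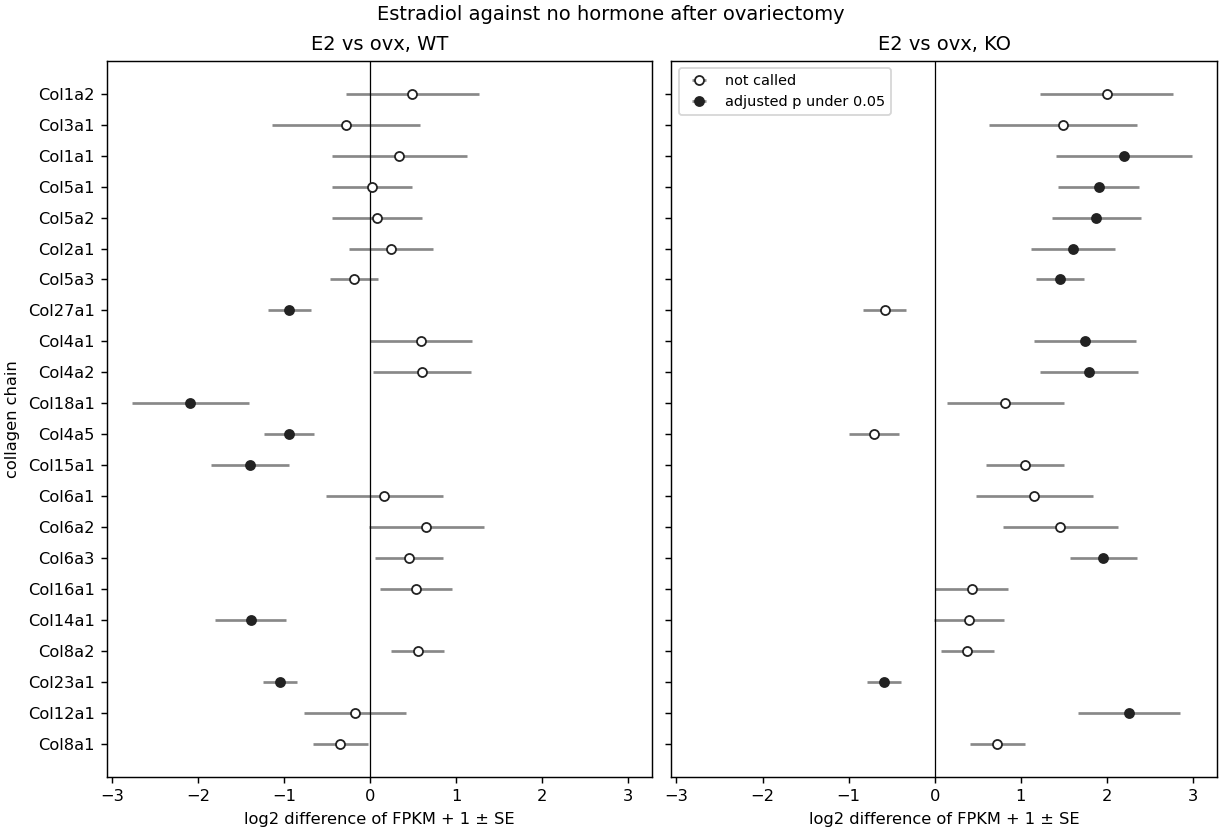
Difference between E2 and ovx in log2(FPKM + 1) for the 22 tested chains in WT and KO, with the standard error as a bar and filled points for an adjusted p under 0.05. In WT the 6 filled points lie left of 0, and in KO 9 lie right of 0 and 1 (Col23a1) left.

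The response to estradiol itself differed between genotypes for 2 of 22 chains (interaction term in limma, 11% of all genes called, 4.05% more positive and 6.95% more negative), both more positive in KO. Col5a3, which passed the filter largely through KO E2, did not change past the threshold in WT (-0.19 ± 0.28) and rose in KO, and the responses differed by 1.66 ± 0.39 (adjusted p = 0.0185). Col15a1 fell in WT, its KO response of 1.05 ± 0.45 missed the threshold, and the responses differed by 2.45 ± 0.63 (adjusted p = 0.0252). The Col5a3 call ended without WT ovx 1 (adjusted p 0.053), and that of Col15a1 ended without WT ovx 1, WT ovx 2, KO ovx 4, WT E2 5 or KO E2 1 (adjusted p up to 0.0682). The count was 0 without WT ovx 1, 1 without WT ovx 2, KO ovx 4, WT E2 5 or KO E2 1, 10 without KO E2 2, and 12 without the 3 libraries that stood apart (19.8% of all genes). The median difference between responses was 1.44 over the 22 chains and -0.14 over all genes.

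Intact uteri of WT differed from ovx uteri in 5 of 22 chains, all lower with ovaries in place, where 45.3% of all genes were called (29.9% higher, 15.4% lower). These were Col15a1, Col18a1, Col16a1, Col27a1 and Col23a1. Col16a1 stood at 1.28, 1.73 and 0.353 FPKM in WT intact, 1.63, 1.56 and 1.23 in KO intact, 5.39, 5.96 and 5.06 in WT ovx, and at 4.71, 6.58 and 0.915 in KO ovx, 4.67, 9.87 and 12.2 in WT E2 and 5.63, 5.92 and 3.45 in KO E2. Col16a1, a fibril-associated chain, lay between 0.353 and 1.73 FPKM in the 6 intact libraries and at or above 3.45 in all ovx and E2 libraries but KO ovx 4. Its difference in WT was -1.67 ± 0.42 (adjusted p = 0.00606). The differences were -1.66 ± 0.45 for Col15a1 (adjusted p = 0.00821) and -0.82 ± 0.20 for Col23a1 (adjusted p = 0.00426). These 3 calls held with each of the 6 libraries left out in turn.

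Col18a1 differed by -1.87 ± 0.68 (adjusted p = 0.0355), a call that ended without WT intact 2, WT intact 4, WT ovx 1, WT ovx 2 or WT ovx 3 (adjusted p up to 0.177), and without WT intact 4 the difference was -1.23. Col27a1 differed by -0.76 ± 0.25 (adjusted p = 0.0242), a call that ended without WT intact 2, WT intact 4, WT ovx 1 or WT ovx 2 (adjusted p up to 0.0959). The count was 3 without WT intact 2, WT intact 4, WT ovx 1 or WT ovx 2. Without the 3 libraries that stood apart it was 4 lower and 5 higher (Col1a1, Col1a2, Col3a1, Col5a2 and Col12a1), with 41.7% of all genes called. The 7 smooth muscle markers, none at 0, summed to 102, 336 and 52.0 FPKM in WT intact and 521 to 614 in WT ovx, with 6 of 7 lower, and the endothelial markers to 1.93 to 14.3 and 29.6 to 34.3, with 6 of 7 lower. Their part was not tested.

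In KO, Col6a3 alone differed between intact and ovx uteri, beside 15.9% of all genes (7.14% higher, 8.74% lower). It was higher in intact uteri by 1.61 ± 0.39 (adjusted p = 0.0116). All its intact values lay above all ovx values, as they did for 12 of 22 chains, Col6a3 included, with none below. Of all genes, 23.2% lay above and 17.9% below without overlap. The Col6a3 call ended without KO intact 4 (adjusted p 0.0501). The count was 2 without KO ovx 4 and 4 without the 3 libraries that stood apart. No chain had a response to the ovaries that differed between genotypes past the threshold (limma interaction term, 4.63% of all genes called, 1.02% more positive and 3.6% more negative), and 6 of 22 had an unadjusted p under 0.05, beside 24.7% of all genes. All intact libraries lay in other sets than the ovx libraries, so the set and the ovaries cannot be told apart in these comparisons.

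Ratios between chains of a type do not move with the scaling of a library. Of 7 pairs tested in 3 comparisons each (21 tests, exact two-sided permutation of libraries within strata, p adjusted over the 21), 4 passed. The ratio of Col1a1 to Col1a2, which make up type I, was 0.799, 0.666 and 0.583 in WT intact, 0.435, 0.373 and 0.570 in KO intact, 0.840, 0.886 and 1.01 in WT ovx, 0.810, 0.772 and 0.853 in KO ovx, 0.819, 0.772 and 0.864 in WT E2 and 1.06, 1.03 and 0.777 in KO E2. It was lower in intact than in ovx uteri by 0.64 on the log2 scale (exact p = 0.005, the smallest that 400 arrangements can give, adjusted p = 0.035), with the lowest values in KO intact. Leaving out any ovx library ended the call (adjusted p 0.0525 to 0.0577).

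For type V, the ratio of Col5a1 to Col5a2 was 1.01, 0.802 and 0.296 in WT intact, 0.558, 0.341 and 0.676 in KO intact, 1.53, 1.78 and 1.52 in WT ovx, 0.595, 0.561 and 0.838 in KO ovx, 1.87, 1.63 and 1.14 in WT E2 and 0.569, 1.101 and 0.668 in KO E2. All KO values lay below all WT values within ovx and within E2, while the intact groups overlapped. KO differed from WT by -0.87 (exact p = 0.007, adjusted p = 0.0367). The call ended without any 1 of 12 of the 18 libraries (adjusted p up to 0.0971), the exceptions being WT intact 4, KO intact 1, KO intact 4, WT E2 5, KO E2 2 and KO E2 3. The ratio ranged from 0.296 to 1.87, the widest range but for Col6a3 to Col6a1 among the 7 pairs.

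For type VI, the ratio of Col6a1 to Col6a2 was 0.988, 1.40 and 1.05 in WT intact, 1.25, 1.37 and 1.30 in KO intact, 1.51, 1.17 and 1.42 in WT ovx, 1.31, 1.40 and 1.30 in KO ovx, 0.942, 0.912 and 1.03 in WT E2 and 1.11, 1.03 and 1.07 in KO E2. Under estradiol it was lower than in ovx by 0.41 on the log2 scale (exact p = 0.005, the smallest possible, adjusted p = 0.035), and all 6 E2 values lay below all 6 ovx values. The ratio of Col6a3 to Col6a1 was 0.114, 0.105 and 1.29 in WT intact, 0.231, 0.201 and 0.268 in KO intact, 0.146, 0.144 and 0.122 in WT ovx, 0.111, 0.123 and 0.181 in KO ovx, 0.193, 0.165 and 0.166 in WT E2 and 0.502, 0.246 and 0.209 in KO E2. It was higher under estradiol by 0.74 (exact p = 0.005, adjusted p = 0.035). Both calls ended without any 1 of the 6 ovx libraries, WT E2 1, WT E2 2 or KO E2 1 (adjusted p up to 0.063). In WT intact 4 the ratio was 1.29 where the other 17 libraries lay at or below 0.502, and without that library KO was higher than WT by 0.61 (adjusted p = 0.0451) in place of 0.22 (adjusted p = 0.8).

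The ratio of Col4a1 to Col4a2, from the pair with the shared promoter region, lay between 1.18 and 1.91 in all libraries, while the level of Col4a1 ranged from 1.42 to 40.9 FPKM. Its log2 differences were -0.02 between genotypes, -0.07 for estradiol and 0.10 for ovaries, none past the threshold (exact p at least 0.33). The smallest adjusted p among the ratios that missed the threshold was 0.063, for Col3a1 to Col1a1 between intact and ovx uteri (0.45), followed by 0.07 for Col5a1 to Col5a2 in the same comparison (-0.87). Some passed the same permutation test with a library left out. Col3a1 to Col1a1 did so without WT intact 2 (adjusted p 0.042) or KO intact 4 (0.021), and for estradiol without KO E2 3 (0.0262). Col5a1 to Col5a2 did so without KO intact 4 (0.021). Between genotypes, Col5a1 to Col1a1 did so without WT intact 2 (0.042) or KO intact 1 (0.0433).

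**Figure D5:**
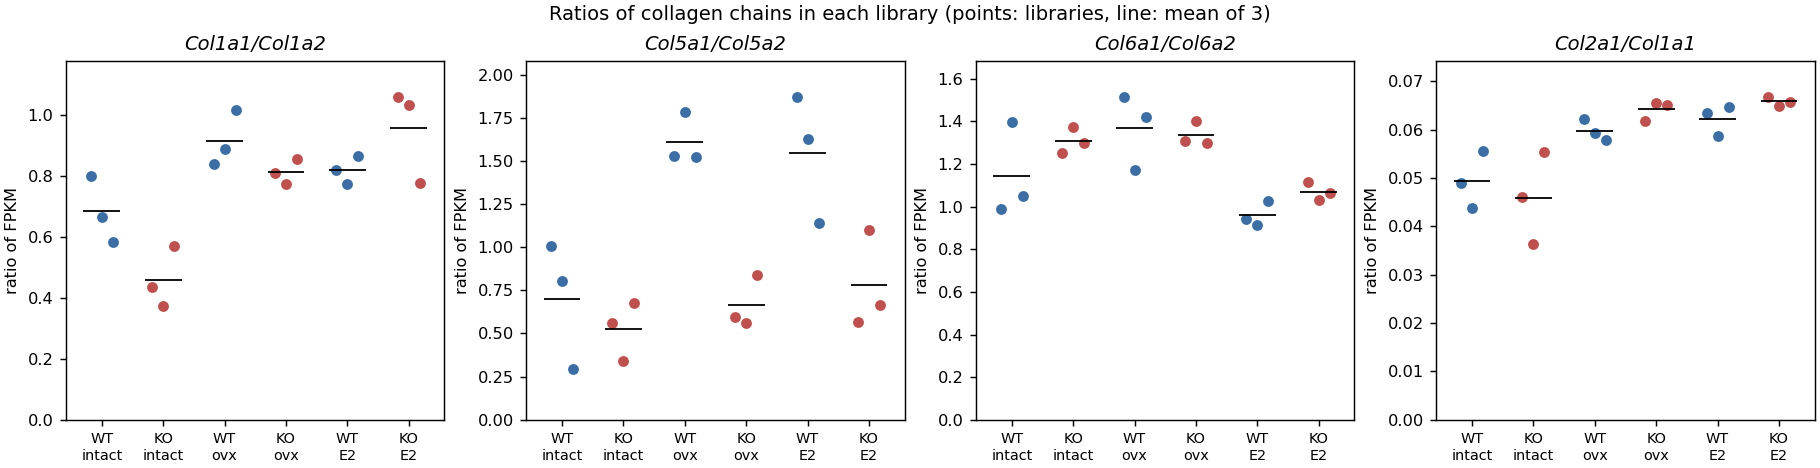
Ratios of FPKM between chains in each library (points, WT blue, KO red, line at the mean of 3), with axes from 0. Col1a1/Col1a2 is lowest in KO intact (0.373 to 0.570), Col5a1/Col5a2 separates WT from KO in ovx and E2, Col6a1/Col6a2 is lower in E2 than in ovx, and Col2a1/Col1a1 stays between 0.0363 and 0.0667.

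Col8a1 and Col8a2, short chains of network-forming type VIII, complete the tested chains. Col8a1 ranged from 0.0104 to 2.78 FPKM and reached 1 FPKM in KO intact 4, KO E2 1 and KO E2 3. Col8a2 ranged from 0.237 to 2.54 FPKM. Neither passed the threshold in any comparison of the main fit. Among the alternatives, Col8a1 was called higher in KO under estradiol with a pseudocount of 0.1 or without the 3 libraries that stood apart. When the WT ovx and WT E2 libraries alone were fitted, Col8a1 was called lower and Col8a2 higher under estradiol.

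The other 19 chains were below the filter, 13 of them never at 1 FPKM and 6 at 1 FPKM in 1 or 2 libraries. They were Col11a1, Col11a2 and Col24a1 among the fibrillar chains, Col4a3, Col4a4 and Col4a6 among those of basement membranes, and Col6a6, Col7a1, Col9a1, Col9a2, Col9a3, Col10a1, Col13a1, Col17a1, Col19a1, Col20a1, Col22a1, Col25a1 and Col28a1 among the others. Their highest value was 2.90 FPKM, of Col9a3 in KO ovx 4. Col9a3, a chain of the cartilage collagen type IX, was listed at 1.504, 0.757 and 2.90 FPKM in KO ovx and 0.0772, 0.0382 and 0.0687 in WT ovx, without overlap. When all genes above 0 somewhere were tested, its difference was 1.28 ± 0.19 (adjusted p = 0.00186). Col24a1, a fibrillar chain, was at 0.335, 0.534 and 1.58 in KO ovx and 0.0278, 0.0310 and 0.0346 in WT ovx, and its difference of 0.76 ± 0.20 missed the threshold in the same fit (adjusted p = 0.0507). The transmembrane Col13a1 stood at 0.486, 0.455 and 0.367 FPKM in WT ovx and at or below 0.118 in every other library, with a difference between KO and WT ovx of -0.40 ± 0.04 (adjusted p = 5.3e-05). These chains were picked from the list for their values and lie below 3 FPKM throughout.

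Lists of 53 genes covered those that modify, fold, export, cut and cross-link collagen, collagen receptors, and the Tgfb growth factors with their receptors. Of the 53, 42 were tested, 10 were below the filter and 1 (P3h4) was not matched. The 42 included 6 genes of collagen receptors and uptake and 6 Tgfb growth factors and receptors. In intact uteri 1 of 42 was higher in KO (Loxl2, a lysyl oxidase), beside 2.18% of all genes called. After ovariectomy 1 was higher (Tll1, a protease that trims procollagen), beside 5.42%, and under estradiol 6, beside 8.49%, with 0 lower in each. Under estradiol these were Plod2, a lysyl hydroxylase, Adamts2, which removes the amino-terminal propeptide, the cross-linking enzymes Lox and Loxl1, the collagen receptor Lair1 and the growth factor Tgfb1. Leaving out 1 library at a time ended the call of Loxl2 in 4 of 6 fits, of Plod2 in 4, Adamts2 in 2, Lox in 5, Loxl1 in 5 and Lair1 in 4. Tgfb1 was at 3.72, 5.73 and 5.86 FPKM in WT E2 and 15.9, 9.05 and 13.8 in KO E2, without overlap. It was higher in KO by 1.18 ± 0.24 (adjusted p = 0.00677), a call that held with each of the 6 libraries left out in turn. Tll1 was at 0.427, 0.545 and 0.492 FPKM in WT ovx and 2.23, 2.02 and 3.63 in KO ovx, a difference of 1.26 ± 0.18 (adjusted p = 0.000866) that held likewise. Tll1 reached 1 FPKM in the 3 KO ovx libraries and in no other, so it passed the filter through the group where it was high, and so in large part did Lair1, at 1 FPKM in the 3 KO E2 libraries and WT E2 2. Cell type markers, those of macrophages and neutrophils among them, also differed between the groups compared, as given above. The part of cell content in the calls of these lists, here and below, was not tested.

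Estradiol after ovariectomy changed 14 of the 42 genes in WT (10 higher, 4 lower) and 22 in KO (19 higher, 3 lower), beside 47.5% and 27.1% of all genes. In the list of prolyl and lysyl hydroxylases, which includes partner proteins such as Crtap, 7 of 10 rose in KO. These were P4ha1, P4ha2, P4hb, Plod1, Plod2, Plod3 and Crtap. In WT, 1 of this list rose (P4hb) and 1 fell (Leprel2). Of the 5 cross-linking genes, Lox, Loxl1 and Loxl2 rose in KO, and in WT Loxl2 and Loxl4 rose while Loxl3 fell. Lox was at 2.82, 1.82 and 1.099 FPKM in KO ovx and 21.1, 5.00 and 29.9 in KO E2, a difference of 2.50 ± 0.51 (adjusted p = 0.00225). Adamts2 was at 1.01, 1.28 and 0.866 in KO ovx and 23.2, 4.07 and 16.3 in KO E2, a difference of 2.65 ± 0.39 (adjusted p = 0.000201). Both held with each of the 6 libraries left out in turn, as did P4ha1, Plod2, Plod3 and Loxl2 in KO. Leaving out 1 library ended the call in KO of P4ha2 in 4 of 6 fits, P4hb in 4, Plod1 in 1, Crtap in 5 and Loxl1 in 3. In WT it ended that of P4hb in 1, Leprel2 in 1 and Loxl2 in 5, while Loxl3 and Loxl4 held in all 6. Loxl4 reached 1 FPKM in the 3 WT E2 libraries and KO E2 2 alone. The median over the 42 genes was 0.84 in KO and 0.16 in WT, beside 0.07 and 0.24 for all genes.

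The response to estradiol differed between genotypes for 8 of the 42, with Plod2, Crtap, Adamts2, Loxl3, Itga1 and Tgfb1 more positive in KO and Tll1 and Ddr1 more negative, beside 11% of all genes. Each of these calls ended without some single libraries: in 11 of 12 fits for Adamts2, 10 for Crtap and Itga1, 9 for Loxl3 and Ddr1, 8 for Plod2 and Tgfb1 and 2 for Tll1. Intact and ovx uteri differed for 13 of the 42 in WT (6 higher, 7 lower) and 7 in KO (5 higher, 2 lower), beside 45.3% and 15.9% of all genes. Without the 3 libraries that stood apart, the counts higher and lower were 21 and 2 for KO against WT under estradiol (23.1% of all genes called), 26 and 3 for estradiol in KO (39.4%) and 19 and 2 for the difference between genotypes in that response (19.8%).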

How the data were processed

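The authors deposited FPKM values for 18 libraries, and the submitters' processing notes name Cufflinks 2.0.2 and Cuffdiff. The aligner, annotation and genome build, and any further scaling, are not given in the sources used here. Per the labels' protocols, RNA was prepared from frozen uteri and sequenced as stranded mRNA libraries. FPKM summed to 216032 to 591668 per library.

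Genes of at least 1 FPKM in at least 3 libraries (13898) were fitted as log2(FPKM + 1) with limma 3.58.1 in R 4.3.3 (1 mean per group, mean-variance trend), two-sided, with Benjamini-Hochberg adjustment over all genes tested in each of 10 comparisons and a threshold of 0.05. This scale understates the change of low genes. The fit was tested on simulated data with the same spread in every group. Library sets were made by clustering shared ratios among values up to 0.05 FPKM, with the number of sets fixed at 4. The 3 other settings tried gave the same sets, and all kept that number. For pairs of libraries, the largest share of such genes at nearly the same ratio had a median of 7.33% within sets and 1.59% between sets. The ranges overlapped, with a lowest share of 3.56% within sets and a highest of 3.98% between them. Ratios were tested in Python 3.11.15. Values in every library are given for each chain called in any comparison and for the 5 of highest median FPKM. The chains and lists were chosen with earlier results of these data known. Alternatives were another pseudocount, no filter, other scalings, fits of the compared groups alone, a term for library set, a replicate block and leaving out libraries.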

Additional observations from a re-analysis of the deposited data

Results flagged for a closer look

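The response to estradiol differed between WT and KO for 2 chains by a test of the difference itself. For Col5a3 the responses differed by 1.66 ± 0.39 in log2(FPKM + 1) (limma interaction term, adjusted p = 0.0185), with -0.19 in WT and 1.46 in KO. For Col15a1 they differed by 2.45 ± 0.63 (adjusted p = 0.0252), with -1.40 in WT and 1.05 in KO. Col5a3 passed the filter on low values largely through the 3 KO E2 libraries. Dixon's criterion for outlying samples was not applied, since it needs groups of at least 4.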

How the results depend on the processing

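Of the 30 chain calls, 30 held under median-ratio scaling, 29 without the 3 libraries that stood apart (6 of them between WT ovx and WT E2, which hold none of the 3), 26 under quantile normalization, 25 with a pseudocount of 0.1, 23 without the filter on low values, 17 of 24 with the library set as a term, 17 with only the groups compared in the fit and 12 with a replicate block; leaving out 1 library kept 126 of 216 values past the threshold. No call changed sign in any of these. Median-ratio scaling moved the median of all genes by -0.13 for estradiol in WT, -0.15 for ovaries in WT and 0.11 for the difference in estradiol response. The causes of the changes below were not tested. Fitting only the groups compared, a block or a left-out library leaves fewer degrees of freedom. The main fit also shares a spread per gene over all 6 groups, while the groups differed in spread. Col5a2, for example, had an SD of 0.169 FPKM in WT E2 and 11.35 in KO E2 (n = 3 each). Adjusted p-values for KO E2 in the main fit therefore draw on groups of narrower spread as well. The values do not settle whether the numbers in the sample titles pair the libraries. Over 31 pairs of the same number the correlation of deviations from group means ran from -0.24 to 0.34. Its median was 0.08, beside -0.03 for pairs of different numbers, and 12 of the 31 were over 0.1.

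Counts of chains called were as follows, of 22 chains, or of 41 without the filter. KO against WT after ovariectomy (1 as reported) gave 0 with the pseudocount of 0.1, 3 without the filter (Col9a3, Col13a1 and Col25a1, with Col15a1 lost), 2 under quantile normalization, 2 with only the groups compared, 0 with the set term and 0 with the replicate block. Under estradiol (3) it gave 0 with only the groups compared, 0 with the block and 14 without the 3 libraries. The mean over states (2) gave 1 with the pseudocount (Col8a1), 0 with the set term, 0 with the block and 10 without the 3 libraries, and without the filter Col9a3 and Col13a1 in place of the reported pair. Estradiol in WT (6) gave 12 without the filter, all lower, 10 with only the groups compared (7 lower, 3 higher) and 3 with the block. Estradiol in KO (10) gave 1, 6 with the set term, 6 with the block and 16 without the 3 libraries, the first of these with only the groups compared. Ovaries in WT (5) gave 8 without the filter, 3 with the block and 9 without the 3 libraries. Ovaries in KO (1) gave 4 without the filter, 2 with only the groups compared and 4 without the 3 libraries. The difference in estradiol response (2) gave 1 with the pseudocount, 4 without the filter, 4 under median-ratio scaling, 6 under quantile normalization, 0 with the block and 12 without the 3 libraries. The difference in response to the ovaries (0) gave 1 without the filter, 1 under quantile normalization and 1 with only the groups compared.

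Leaving out 1 library at a time, the counts ran from 0 to 2 (KO against WT, intact), 0 to 0 (ovx), 1 to 12 (E2), 0 to 7 (mean), 4 to 6 (estradiol in WT), 3 to 13 (estradiol in KO), 3 to 5 (ovaries in WT), 0 to 2 (ovaries in KO), 0 to 10 (difference in estradiol response) and 0 to 1 (in response to ovaries). Ratios ran from -0.72 to -0.57 for Col1a1/Col1a2 (intact against ovx), -1.05 to -0.75 (KO against WT) and -1.05 to -0.61 (intact against ovx) for Col5a1/Col5a2, -0.47 to -0.37 for Col6a1/Col6a2 (E2 against ovx), 0.01 to 0.61 (KO against WT) and 0.55 to 0.86 (E2 against ovx) for Col6a3/Col6a1, -0.94 to -0.50 (E2 against ovx) and 0.35 to 0.54 (intact against ovx) for Col3a1/Col1a1, and -0.49 to -0.36 for Col5a1/Col1a1 (KO against WT). The summed FPKM of basement membrane chains in WT ovx, 30.6 as reported, was 34.02 under median-ratio scaling. Read depth is unknown, so what it limits cannot be given.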
